A study of Sus scrofa with 24 samples.

Results

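The TGF-beta, activin and BMP genes described here are 10 of the 25462 genes in a table of transcript levels from differentiating pig preadipocytes. They were taken as the rows with the symbols TGFB1, TGFB2, TGFB3, INHBA, BMP2 and BMP4 (ligands), GREM1 (a secreted antagonist), SMAD7 (an inhibitor inside the cell) and ID1 and ID3 (target genes). Each symbol matched 1 row, and all 10 passed the filter on low values that left 16135 genes for testing. The cells were primary preadipocytes of 6-day-old Yorkshire piglets. They were isolated from back subcutaneous fat (BF) or, as intramuscular preadipocytes (IMF), from digested longissimus dorsi muscle. Both depots followed 1 protocol, in which cells of day 0 had not yet been induced and later cells were given an induction medium with IBMX, dexamethasone and insulin up to day 2, a medium with insulin up to day 4 and growth medium after that. Libraries of polyadenylated RNA were made on days 0, 2, 4 and 8, with 3 replicates per depot and day, which gave 8 groups (BF-0d to BF-8d and IMF-0d to IMF-8d) and 24 libraries. The labels did not tie replicates to piglets, so the p-values measure the spread between these libraries, which may be technical.

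TGF-beta family ligands are secreted dimers that bind paired serine/threonine kinase receptors at the cell surface. TGF-betas and activins act mainly through SMAD2 and SMAD3, and BMPs mainly through SMAD1, SMAD5 and SMAD8, and both arms share SMAD4. SMAD7 is induced by the pathway and blocks its receptors, GREM1 binds and traps BMP2 and BMP4 outside the cell, and the ID genes, which encode inhibitors of basic helix-loop-helix transcription factors, are direct targets of BMP signalling. In the adipose lineage TGF-beta and activin A are known for holding precursor cells back from differentiation, whereas BMP4 and BMP2 are known for committing them to it.

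Values were FPKM, that is, fragments relative to the length of the transcript and to all mapped fragments, so levels can be set side by side between genes, while read depth is unknown. Every difference is a log2 fold change of FPKM + 1, given with its standard error (SE) from a single limma fit to all 24 libraries, and they understate the change of genes with low values. A gene was called when its adjusted p was under 0.01 and its log2 fold change was 1 or more in either direction, and rose, fell, higher and lower are kept for called genes. Total FPKM ranged from 307967 to 385768 per library. BF-2d replicate 3 stood apart on the first principal component (-17.2 against 26.5 and 27.2 for the other replicates of its group), and BF-4d replicate 3 lay at 65.1, among the BF-8d libraries (62.6 to 65.5) and away from the other BF-4d libraries (43.1 and 51.0). All 6 stromal markers in the table, which preadipocytes share with fibroblasts, were detected. They summed to 11966 to 13128 FPKM in BF-0d, 5389 to 11153 in BF-2d, 2851 to 4191 in BF-4d and 3308 to 3667 in BF-8d, and in IMF to 12094 to 12559, 10428 to 11640, 10072 to 10333 and 5809 to 6659 on the same days, so the sum moved with the day in both depots and with the depot on days 4 and 8. COL1A1 and COL1A2, the type I collagen genes, made up most of it. DCN fell with both from BF-0d to BF-8d, but not all members went that way. PDGFRA rose over the whole course in each depot, from a mean of 77.0 to 228 FPKM in BF and 60.1 to 226 in IMF, and on day 4 COL1A1, COL1A2 and DCN were higher in IMF while PDGFRA and PDGFRB were lower. The adipocyte markers summed to 9.16 to 10.9 FPKM in BF-0d, 23.1 to 93.4 in BF-2d, 182 to 318 in BF-4d and 281 to 622 in BF-8d. In IMF they summed to 2.79 to 3.67, 5.18 to 7.64, 11.4 to 14.3 and 97.2 to 143 on the same days, below every BF library of the day, while ADIPOQ was listed at 0 in every IMF library. On day 8 nearly all of that sum was LPL, lipoprotein lipase, with means of 2.22 FPKM in BF-0d, 422 in BF-8d, 1.06 in IMF-0d and 120 in IMF-8d. PPARG, the master regulator of fat cell formation, fell from BF-0d to BF-8d (-1.04, SE 0.29, adjusted p = 0.0061), CEBPA differed by 0.04 there, and PLIN1, which coats lipid droplets, was listed at 0 in all day 8 libraries. Of the 8 myogenic markers, MYF5 and MYOD1 were listed at 0 in all libraries and only DES was tested. The myogenic sum in IMF and BF was 29.7 to 45.4 and 4.56 to 4.91 FPKM on day 0, 3.07 to 4.69 and 0.109 to 3.24 on day 2, 10.1 to 13.2 and 0.0752 to 0.119 on day 4, and 1.38 to 2.25 and 0.103 to 0.154 on day 8. DES, which encodes the muscle filament protein desmin, was higher in IMF on all 4 days and fell in both depots from day 0 to day 8. In BF, endothelial markers summed to 4.45 to 5.18, 1.17 to 1.98, 1.04 to 1.98 and 1.21 to 2.36 FPKM on the 4 days. In IMF they summed to 3.87 to 5.20, 3.30 to 3.55, 3.57 to 3.66 and 3.97 to 4.81. PECAM1, the only 1 tested, fell in BF from day 0 to days 2 and 8 and was higher in IMF on day 8. Immune markers summed to 5.35 to 6.81, 3.20 to 5.29, 3.14 to 18.9 and 8.06 to 13.3 FPKM in BF. In IMF they summed to 6.76 to 7.61, 4.09 to 4.52, 4.44 to 5.78 and 8.85 to 11.12. CD3E was listed at 0 throughout, and none of the 3 immune markers tested was called. The part of these cell types in the results below was not tested, and in RNA of whole cultures fewer cells of a type and less RNA per cell cannot be told apart.

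All 10 genes were found in RefSeq on Sscrofa11.1, the build the authors used, and positions are given for the genes whose RefSeq sequence is shown. Of the 250 bases before each of the 10 annotated starts, the window of SMAD7 alone held the SMAD palindrome GTCTAGAC, at -165 from the start, and 0.164% of the windows of 19559 protein-coding genes held it. The window of GREM1 held GGCGCC, a GC-rich SMAD motif that is also its own reverse complement, at -17, as did that of BMP2 at -117, and 16.1% of all windows held that motif. TATAAA was found in ID1 from -33 and -31, overlapping on the opposite strands, and in ID3 from -6, against 9.77% of all windows, while TGACGTCA, a cyclic AMP response element present in 1.7% of windows, was in none of the 10. Both strands were searched in every case, and a match describes the letters only. The windows of the SMAD target SMAD7, of the antagonist GREM1 and of the paired ID genes are shown 5′ to 3′ on the strand of the gene, with the matches in capitals. SMAD7 lies on the minus strand at chr1:98512800-98543924 with its window at chr1:98543925-98544174. GREM1 lies on the plus strand at chr1:136617041-136629293 with its window at chr1:136616791-136617040. ID1 lies on the plus strand at chr17:35316518-35317742 with its window at chr17:35316268-35316517. ID3 lies on the minus strand at chr6:81422541-81424169 with its window at chr6:81424170-81424419.
SMAD7: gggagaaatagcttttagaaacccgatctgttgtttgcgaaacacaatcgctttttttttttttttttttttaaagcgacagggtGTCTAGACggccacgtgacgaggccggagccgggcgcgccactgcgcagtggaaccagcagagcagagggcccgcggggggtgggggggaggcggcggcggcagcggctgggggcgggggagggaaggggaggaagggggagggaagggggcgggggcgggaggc
GREM1: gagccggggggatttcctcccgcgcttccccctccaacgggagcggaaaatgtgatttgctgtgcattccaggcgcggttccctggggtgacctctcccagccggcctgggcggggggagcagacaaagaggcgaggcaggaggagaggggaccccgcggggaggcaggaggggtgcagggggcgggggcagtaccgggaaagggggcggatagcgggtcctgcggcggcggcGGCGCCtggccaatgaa
ID1: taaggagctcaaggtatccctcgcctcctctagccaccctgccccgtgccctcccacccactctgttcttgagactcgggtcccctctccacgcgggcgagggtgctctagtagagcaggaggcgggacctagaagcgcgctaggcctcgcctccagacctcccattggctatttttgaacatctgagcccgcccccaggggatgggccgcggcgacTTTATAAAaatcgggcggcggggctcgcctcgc
ID3: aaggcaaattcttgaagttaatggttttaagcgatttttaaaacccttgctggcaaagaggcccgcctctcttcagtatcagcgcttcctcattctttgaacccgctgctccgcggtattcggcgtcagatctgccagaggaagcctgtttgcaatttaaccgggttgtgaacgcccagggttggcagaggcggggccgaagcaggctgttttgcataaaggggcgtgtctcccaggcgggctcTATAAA

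Over the first 2 days in BF, 5 of the 10 genes rose and 0 fell (BMP2, GREM1, SMAD7, ID1 and ID3), where 2.71% of all tested genes rose and 3.87% fell. From day 2 to day 4 in BF, TGFB1 and TGFB2 rose (2 of 10 against 2.01% of all tested genes) and 0 fell (1.34%). From day 4 to day 8 in BF, GREM1 rose again (1 of 10 against 1.78%), and TGFB3, SMAD7 and ID3 fell (3 of 10 against 1.14%). A fit of only the compared groups called 1 (ID3), 0 and 0 of the 10 genes over these 3 intervals, and 237, 0 and 4 of all tested genes. Over the whole course in BF, TGFB1, TGFB2, BMP2, GREM1 and ID1 rose (5 of 10 against 6.28%) and 0 fell (7.39%). The median log2 difference of the 10 genes was 0.73, 0.56, -0.94 and 1.26 in these 4 comparisons, where the median of all tested genes was -0.04, 0.02, -0.05 and -0.06.

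In IMF, calls among the 10 genes were made only in comparisons with day 8. From day 0 to day 2, 0 of 10 rose or fell by limma, where 0.328% and 0.459% of all tested genes did, and 3 were at an unadjusted p under 0.05. From day 2 to day 4 the count was again 0 of 10, beside 0.031% and 0.0062% of all tested genes, with 2 at an unadjusted p under 0.05. Both counts stayed at 0 under the other limma settings and without any 1 library of the compared groups. From day 4 to day 8, INHBA, BMP2, BMP4 and GREM1 rose (4 of 10 against 4.16%) and 0 fell (3.08%). Over the whole course INHBA, BMP2, BMP4, GREM1, ID1 and ID3 rose (6 of 10 against 4.56%) and 0 fell (4.49%). Medians of the 10 genes were 0.22, 0.01, 0.66 and 1.10, against -0.01, 0.02, -0.07 and -0.05 over all tested genes. Comparisons that share a day share its libraries, so their values are given side by side only.

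Between the depots on day 0, GREM1 was the only gene of the 10 called and was lower in IMF (1 of 10 against 0.713% of all tested genes), and 0 were higher (1.87%). On day 2, BMP2, GREM1 and ID1 were lower in IMF (3 of 10 against 2.02%) and 0 higher (2.71%). On day 4, TGFB2, BMP2, GREM1, SMAD7 and ID1 were lower in IMF (5 of 10 against 4.72%) and 0 higher (6.6%). When only the compared groups were fitted, the calls were 1 of 10 on day 2 (GREM1), against 0.663% of all tested genes, and 3 of 10 on day 4 (BMP2, GREM1 and SMAD7), against 9.65%. On day 8 the directions were mixed, with TGFB3, BMP4 and ID3 higher in IMF (3 of 10 against 4.31%) and TGFB2 lower (1 of 10 against 2.65%). The median of the 10 genes was 0.41, -0.10, -1.10 and 0.56 on the 4 days, and that of all tested genes 0.02, 0.07, 0.07 and 0.04.

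**Figure D1:**
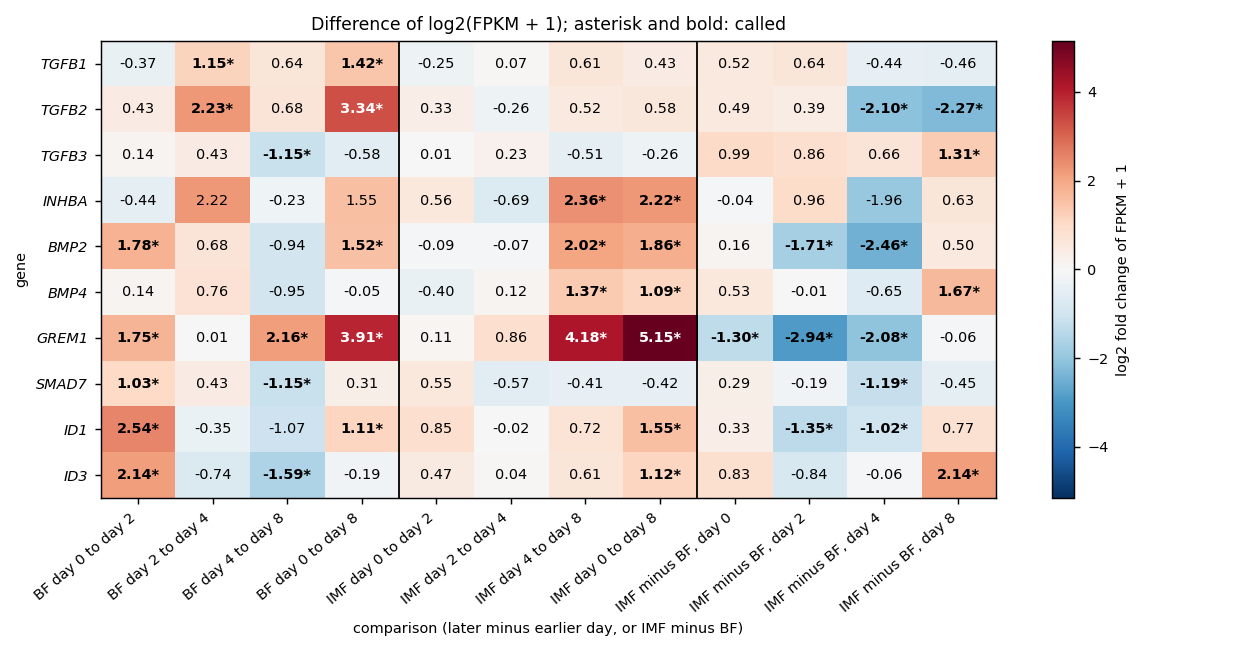
Log2 fold changes of FPKM + 1 of the 10 genes (vertical axis) in the 12 pairwise comparisons (horizontal axis), red where the later day or IMF has the larger value and blue where it has the smaller, with called values in bold and marked by an asterisk. The largest value is 5.15 for GREM1 in IMF from day 0 to day 8, and the columns for the first and second intervals in IMF hold no called value.

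TGFB1 and TGFB2, both TGF-beta ligands, rose in BF cultures and were not called at any interval in IMF. TGFB1 (ENSSSCG00000003017) was measured at 7.66, 10.4 and 9.93 FPKM in BF-0d, at 5.69, 6.65 and 8.78 in BF-2d, at 8.87, 19.4 and 25.9 in BF-4d and at 27.0, 24.5 and 27.6 in BF-8d. The IMF values were 14.4, 11.8 and 15.1 on day 0, 13.5, 9.42 and 11.6 on day 2, 12.5, 12.4 and 11.0 on day 4, and 19.0, 16.7 and 21.0 on day 8. BF-8d lay above every other group except that it neighbours BF-4d, whose highest library reached 25.9, and BF-4d spanned the range from the day 2 level to the day 8 level. TGFB1 rose by 1.15 (SE 0.24, adjusted p = 0.00225) from BF-2d to BF-4d and by 1.42 (SE 0.24, adjusted p = 6.58e-05) from BF-0d to BF-8d. The first call was lost without BF-4d replicate 2 (1.04, adjusted p = 0.0129), without BF-4d replicate 3 (0.84, adjusted p = 0.0158) and when only the compared groups were fitted (adjusted p = 0.198). In IMF from day 0 to day 8 the difference was 0.43 (SE 0.24, adjusted p = 0.176), although the ranges did not overlap, and the depots were not called apart on any day.

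TGFB2 (ENSSSCG00000010816) showed the widest range of the TGF-beta ligands. It was 5.37, 6.43 and 6.46 FPKM in BF-0d, 13.5, 11.12 and 3.89 in BF-2d, 19.6, 38.2 and 108 in BF-4d and 103, 43.6 and 77.6 in BF-8d. IMF libraries stayed within 7.81 to 15.5 FPKM on all 4 days, with means of 8.98 ± 1.19, 11.5 ± 0.156, 9.40 ± 1.15 and 13.9 ± 1.72 (SD, n = 3). All BF-4d and BF-8d libraries thus lay above all IMF libraries and above all earlier BF libraries, and BF-4d and BF-8d overlapped each other. The rise was 2.23 (SE 0.43, adjusted p = 0.00117) from BF-2d to BF-4d and 3.34 (SE 0.43, adjusted p = 2.63e-06) from BF-0d to BF-8d. Without BF-4d replicate 3 the former was 1.58 and still called. TGFB2 was lower in IMF than in BF on day 4 (-2.10, SE 0.43, adjusted p = 0.000554) and on day 8 (-2.27, SE 0.43, adjusted p = 0.000406). The day 4 value was -1.46 without BF-4d replicate 3, and still called. With only the compared groups fitted, the BF-2d to BF-4d rise (adjusted p = 0.173) and the day 4 difference (adjusted p = 0.0261) were no longer called, while both calls that involve BF-8d were kept under every setting and without any 1 library of the compared groups.

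TGFB3 (ENSSSCG00000002385), the third TGF-beta ligand, fell late in BF and was higher in IMF on day 8. Its values were 7.04, 7.24 and 8.30 FPKM in BF-0d, 13.9, 10.7 and 3.75 in BF-2d, 11.6, 8.11 and 16.6 in BF-4d and 4.25, 4.85 and 4.98 in BF-8d. In IMF it was 14.8, 16.2 and 16.6 on day 0, 17.1, 13.6 and 17.7 on day 2, 18.8, 18.0 and 20.3 on day 4, and 12.3, 13.6 and 13.4 on day 8. BF-8d was the lowest group on average and overlapped with BF-2d alone, through its replicate 3, and IMF-4d was the highest and overlapped with no group. The day 8 difference of TGFB3 was 1.31 (SE 0.27, adjusted p = 0.000916), a call kept under every setting. On days 0, 2 and 4 the difference had the same sign, at 0.99 (adjusted p = 0.0188), 0.86 (adjusted p = 0.0265) and 0.66 (adjusted p = 0.058), none called. That of day 2 was called without BF-2d replicate 1 (1.19, adjusted p = 0.00422). The change from day 4 to day 8 was not called different between depots (0.65, SE 0.39, adjusted p = 0.273). The fall of TGFB3 from BF-4d to BF-8d (-1.15, SE 0.27, adjusted p = 0.00592) was lost without any of 5 of the 6 libraries compared, where it ranged from -0.91 to -1.19 (adjusted p of 0.0173 to 0.0245), that is, without BF-4d replicate 1 or 3 or without any BF-8d library. It was also lost with median ratio scaling, quantile normalization, no filter, or only the compared groups fitted.

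**Figure D2:**
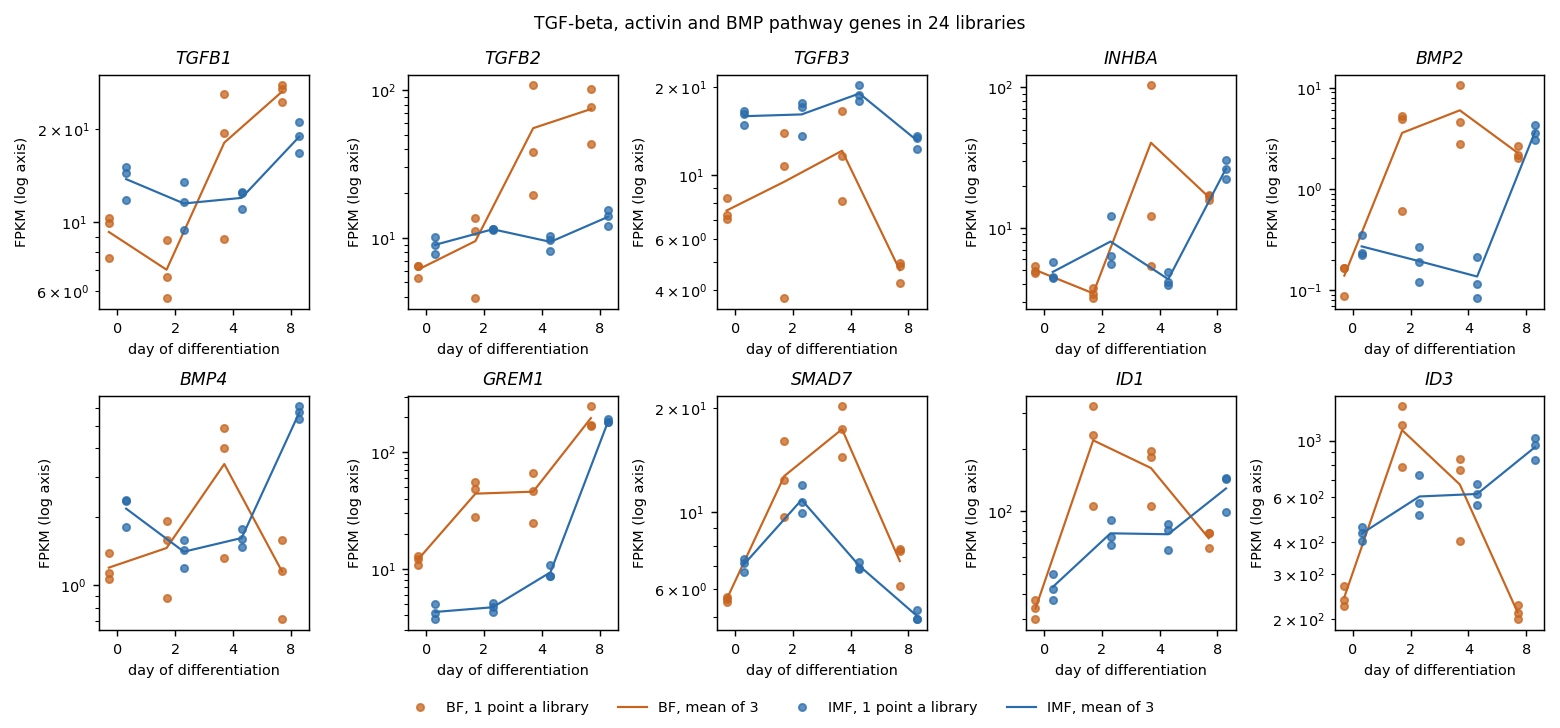
FPKM of the 10 genes (vertical axis, logarithmic and scaled separately for each gene) on the 4 days (horizontal axis, evenly spaced categories), with 1 point a library and lines through the means of 3 replicates, orange for BF and blue for IMF. BF points of TGFB2 reach 103 to 108 on days 4 and 8 while the IMF points stay at 15.5 or under, and GREM1 ends at 169 to 248 in BF and 181 to 193 in IMF.

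The mix of the TGF-beta ligand transcripts was expressed as the share of each in their summed FPKM. TGFB2 made up 26.2 to 26.8% of the summed FPKM of TGFB1, TGFB2 and TGFB3 in BF-0d, 23.7 to 40.9% in BF-2d, 48.9 to 71.8% in BF-4d and 59.8 to 76.7% in BF-8d. In IMF its share was 19.7 to 26.7% on day 0 and 26.0 to 33.9% on day 8. The share of TGFB1 was 38.2 to 43.1% in BF-0d and 20.1 to 33.5% in BF-8d, against 30.8 to 38.2% in IMF-0d and 36.4 to 45.2% in IMF-8d. That of TGFB3 was 30.1 to 35.1% in BF-0d and 3.17 to 6.66% in BF-8d, against 38.8 to 42.5% in IMF-0d and 27.1 to 29.7% in IMF-8d. The summed level was 20.1 to 24.7 FPKM in BF-0d and 72.9 to 134 in BF-8d, and between 34.5 and 46.5 in all 12 IMF libraries. These shares are descriptions of the same values that were tested gene by gene.

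**Figure D3:**
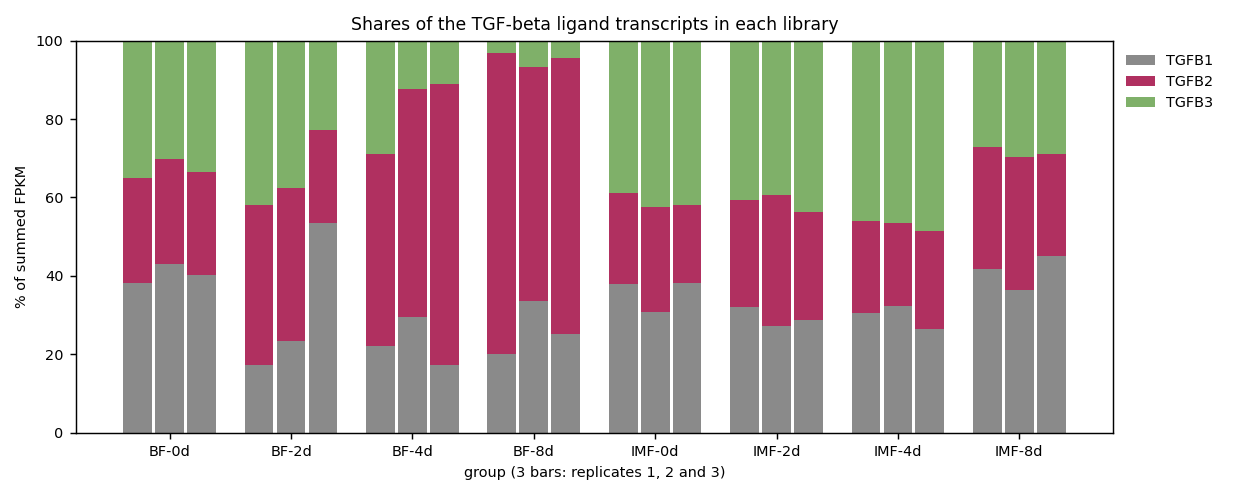
Share of TGFB1, TGFB2 and TGFB3 in their summed FPKM (vertical axis, %) in each of the 24 libraries (horizontal axis, 3 bars a group for replicates 1 to 3). TGFB2 takes 59.8 to 76.7% in BF-8d and at most 33.9% in any IMF library.

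INHBA (ENSSSCG00000035077), which encodes the subunit whose dimer is activin A, rose late in IMF and varied widely between the BF-4d libraries. It was 4.94, 5.33 and 4.79 FPKM in BF-0d, 3.72, 3.16 and 3.42 in BF-2d, 5.35, 12.3 and 103 in BF-4d and 17.1, 16.8 and 15.9 in BF-8d. IMF values were 4.43, 5.70 and 4.47 on day 0, 6.34, 12.1 and 5.58 on day 2, 4.12, 3.96 and 4.89 on day 4, and 26.4, 30.5 and 22.3 on day 8. IMF-8d stood above all libraries except BF-4d replicate 3, and BF-8d lay above all BF libraries of days 0 and 2 with a narrow spread (16.6 ± 0.601 FPKM, SD, n = 3).

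INHBA rose by 2.36 (SE 0.58, adjusted p = 0.00393) from IMF-4d to IMF-8d and by 2.22 (SE 0.58, adjusted p = 0.00525) from IMF-0d to IMF-8d. Both calls were near the threshold. The first was lost without any library except IMF-8d replicate 3 (2.25 to 2.43, adjusted p of 0.0106 to 0.0151) and the second without any of the 6 (2.11 to 2.33, adjusted p of 0.0116 to 0.0197), and with no filter on low values both were lost (adjusted p = 0.0121 and 0.0153). With only the compared groups fitted both were kept, and the ranges did not overlap in either comparison. The SE of 0.58 pools the spread of all groups, that of BF-4d among them. No BF library was left out for these IMF comparisons. In BF the difference was 2.22 (SE 0.58, adjusted p = 0.01) from day 2 to day 4 and 1.55 (SE 0.58, adjusted p = 0.0339) from day 0 to day 8, neither called. The latter was called when only BF-0d and BF-8d were fitted (1.55, adjusted p = 6.18e-06), and the former without BF-4d replicate 1 (3.07, adjusted p = 0.000224) and without BF-4d replicate 3 (1.05, adjusted p = 0.0083). The day 2 to day 4 value was also called with a pseudocount of 0.1 (2.44, adjusted p = 0.00656), a stricter filter (adjusted p = 0.00857) and median ratio scaling (adjusted p = 0.00956). On day 4 INHBA gave -1.96 (SE 0.58, adjusted p = 0.0106) in IMF against BF, not called. That value was called lower under 4 settings, a pseudocount of 0.1, a stricter filter, median ratio scaling and quantile normalization (-1.96 to -2.12, adjusted p of 0.00573 to 0.0095), and without BF-4d replicate 1 (-2.81, adjusted p = 0.00015) or BF-4d replicate 2 (-2.28, adjusted p = 0.00938). Without BF-4d replicate 3 it was -0.79 (adjusted p = 0.0193), under the fold limit. BF-4d replicate 3, with the highest INHBA and TGFB2 of all libraries, also had the highest summed immune markers (18.9 FPKM), through CD14 at 17.1 FPKM against 2.87 and 2.10 in the other BF-4d libraries, while PTPRC was listed at 0 and CSF1R at 0.0563 in it.

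BMP2 (ENSSSCG00000039442), a BMP ligand, rose in both depots, in BF by day 2 and in IMF between days 4 and 8. It was 0.166, 0.164 and 0.0876 FPKM in BF-0d, 5.20, 4.93 and 0.612 in BF-2d, 10.6, 4.56 and 2.79 in BF-4d and 2.15, 2.68 and 2.01 in BF-8d. In the IMF libraries the values were 0.234, 0.355 and 0.224 on day 0, 0.121, 0.191 and 0.268 on day 2, 0.211, 0.0830 and 0.116 on day 4, and 3.02, 3.60 and 4.33 on day 8. The 12 libraries of BF-0d and of IMF on days 0 to 4 were at 0.355 FPKM or under, with neighbouring groups overlapping, and the other 12 were at 0.612 FPKM or above.

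BMP2 rose in BF by 1.78 (SE 0.37, adjusted p = 0.00103) from day 0 to day 2 and by 1.52 (SE 0.37, adjusted p = 0.0019) between days 0 and 8, and in IMF it rose by 2.02 (SE 0.37, adjusted p = 0.00028) from day 4 to day 8 and 1.86 (SE 0.37, adjusted p = 0.000482) from day 0 to day 8. It was lower in IMF on day 2 (-1.71, SE 0.37, adjusted p = 0.00228) and day 4 (-2.46, SE 0.37, adjusted p = 2.26e-05), and on day 8 the depots differed by 0.50 (SE 0.37, adjusted p = 0.314). With a pseudocount of 0.1 in place of 1 these values were 3.50, 3.32, 4.01, 3.34, -3.22 and -4.51 for the called comparisons, in the same order. The BF-0d to BF-2d rise was lost without BF-2d replicate 2 (1.47, adjusted p = 0.0115) and with only the compared groups fitted (adjusted p = 0.0561). The day 2 difference was lost without BF-2d replicate 1 (-1.38, adjusted p = 0.0165), BF-2d replicate 2 (-1.41, adjusted p = 0.0233) or IMF-2d replicate 1 (-1.67, adjusted p = 0.0112), and with only the compared groups fitted (adjusted p = 0.095).

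BMP4 (ENSSSCG00000005045), the other BMP ligand, rose in IMF between days 4 and 8 and was called at no interval in BF. It was 1.07, 1.14 and 1.38 FPKM in BF-0d, 1.92, 1.58 and 0.881 in BF-2d, 1.31, 4.02 and 4.88 in BF-4d and 1.58, 0.709 and 1.16 in BF-8d. IMF libraries gave 2.34, 2.37 and 1.80 on day 0, 1.20, 1.43 and 1.59 on day 2, 1.60, 1.77 and 1.47 on day 4, and 6.10, 5.34 and 5.76 on day 8. IMF-8d did not overlap with any other group. In order of level, BF-8d, BF-0d, IMF-2d, BF-2d and IMF-4d each overlapped with the next, and so did IMF-0d and BF-4d. The rise from IMF-4d to IMF-8d was 1.37 (SE 0.24, adjusted p = 0.000174) and that from IMF-0d 1.09 (SE 0.24, adjusted p = 0.00113). On day 8 BMP4 was higher in IMF by 1.67 (SE 0.24, adjusted p = 2.05e-05), and all of these calls were kept under every setting. In BF the difference was -0.95 (SE 0.24, adjusted p = 0.00844) from day 4 to day 8, just short of the fold limit, which was called with a pseudocount of 0.1 (-1.36), without BF-4d replicate 1 (-1.36) and without BF-8d replicate 1 (-1.09). From BF-2d to BF-4d BMP4 gave 0.76 (SE 0.24, adjusted p = 0.0255), and on day 4 the difference of IMF from BF was -0.65 (SE 0.24, adjusted p = 0.0334), neither called. Both were called without BF-4d replicate 1 (1.17, adjusted p = 0.000107, and -1.06, adjusted p = 7.48e-05), and without BF-4d replicate 3 they were 0.49 and -0.38.

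GREM1 (ENSSSCG00000033657), the antagonist of BMP2 and BMP4, had the largest change of the 10 genes from day 0 to day 8 in each depot. It was 10.7, 12.3 and 12.8 FPKM in BF-0d, 48.5, 28.1 and 55.9 in BF-2d, 46.6, 66.4 and 24.8 in BF-4d and 248, 172 and 169 in BF-8d. In IMF it was 4.96, 4.15 and 3.68 on day 0, 4.72, 5.04 and 4.28 on day 2, 10.7, 8.61 and 8.69 on day 4, and 181, 193 and 182 on day 8. BF libraries lay above all IMF libraries on days 0, 2 and 4, and on day 8 the depots overlapped at 197 ± 44.7 and 185 ± 6.55 FPKM (SD, n = 3).

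GREM1 rose in BF in 2 steps, by 1.75 (SE 0.26, adjusted p = 4.03e-05) from day 0 to day 2 and by 2.16 (SE 0.26, adjusted p = 1.2e-05) from day 4 to day 8, with 0.01 (SE 0.26) between them. In IMF it rose by 4.18 (SE 0.26, adjusted p = 4.03e-10) from day 4 to day 8. The IMF intervals before that gave 0.11 (SE 0.26, adjusted p = 0.88) and 0.86 (SE 0.26, adjusted p = 0.219), neither called, although all IMF-4d libraries lay above all IMF-2d libraries. Over the whole course the rise was 3.91 (SE 0.26, adjusted p = 4.51e-10) in BF and 5.15 (SE 0.26, adjusted p = 1.59e-11) in IMF. It was lower in IMF on day 0 (-1.30, SE 0.26, adjusted p = 0.00147), on day 2 (-2.94, SE 0.26, adjusted p = 1.22e-07) and on day 4 (-2.08, SE 0.26, adjusted p = 2.58e-06), and differed by -0.06 (SE 0.26, adjusted p = 0.883) on day 8. The day 0 call was lost without IMF-0d replicate 3 (-1.22, adjusted p = 0.01), and with only the compared groups fitted the BF steps had adjusted p of 0.0108 and 0.045.

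SMAD7 (ENSSSCG00000004507), the inhibitory SMAD whose promoter window holds the palindrome shown above, rose and fell again in BF. It was 5.61, 5.50 and 5.71 FPKM in BF-0d, 16.1, 12.4 and 9.71 in BF-2d, 17.5, 14.5 and 20.3 in BF-4d and 6.15, 7.72 and 7.84 in BF-8d. Its IMF values were 7.35, 7.13 and 6.74 on day 0, 12, 9.97 and 10.7 on day 2, 7.21, 6.89 and 6.93 on day 4, and 4.94, 5.22 and 4.91 on day 8. The IMF peak was on day 2, where every library lay above every other IMF library, and the BF peak spanned days 2 and 4, which overlapped.

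SMAD7 rose by 1.03 (SE 0.14, adjusted p = 1.48e-05) from BF-0d to BF-2d and fell from BF-4d to BF-8d (-1.15, SE 0.14, adjusted p = 1.2e-05), and it was lower in IMF on day 4 (-1.19, SE 0.14, adjusted p = 1.2e-06). In IMF the day 2 difference from day 0 was 0.55 (SE 0.14, adjusted p = 0.0166), and the following intervals gave -0.57 (adjusted p = 0.0917) and -0.41 (adjusted p = 0.0255), none of them called. The BF-0d to BF-2d rise was 0.86 without BF-2d replicate 1, short of the fold limit (adjusted p = 0.000112). With only the compared groups fitted, the rise (adjusted p = 0.0196) and the fall (adjusted p = 0.0321) in BF were not called.

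ID1 and ID3, the BMP targets, had their highest mean on day 2 in BF and on day 8 in IMF. ID1 (ENSSSCG00000037016) was 30.0, 34.2 and 37.4 FPKM in BF-0d, 235, 324 and 106 in BF-2d, 185, 196 and 107 in BF-4d and 66.4, 78.3 and 78.2 in BF-8d. In the IMF groups it was 49.8, 37.2 and 42.2 on day 0, 90.9, 75.5 and 68.8 on day 2, 81.2, 86.7 and 64.8 on day 4, and 144, 99 and 145 on day 8. BF-2d and BF-4d overlapped each other and IMF-8d, and BF-8d overlapped IMF-2d and IMF-4d. ID3 (ENSSSCG00000039514), the most abundant of the 10 genes, was 225, 238 and 268 FPKM in BF-0d, 1149, 1362 and 785 in BF-2d, 846, 768 and 404 in BF-4d and 199, 211 and 227 in BF-8d. The IMF libraries held 434, 404 and 457 on day 0, 571, 730.1 and 509.7 on day 2, 677, 615 and 561 on day 4, and 963, 840.3 and 1021 on day 8. BF-8d overlapped with BF-0d, whereas all IMF-8d libraries lay above the other IMF libraries.

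ID1 rose by 2.54 (SE 0.29, adjusted p = 2.3e-06) and ID3 by 2.14 (SE 0.22, adjusted p = 7.09e-07) from BF-0d to BF-2d. ID3 fell from BF-4d to BF-8d (-1.59, SE 0.22, adjusted p = 6.61e-05), and ID1 differed by -1.07 (SE 0.29, adjusted p = 0.0133), which was called without BF-4d replicate 3 (-1.35, adjusted p = 0.00235). From IMF-0d to IMF-8d, ID1 rose by 1.55 (SE 0.29, adjusted p = 0.000265) and ID3 by 1.12 (SE 0.22, adjusted p = 0.000452, or 0.97 and under the fold limit after quantile normalization). From BF-0d to BF-8d, ID1 rose by 1.11 (SE 0.29, adjusted p = 0.00329), a call lost without BF-0d replicate 1 (1.03, adjusted p = 0.0158), BF-0d replicate 2 (1.12, adjusted p = 0.0102), BF-8d replicate 2 (1.07, adjusted p = 0.013) or BF-8d replicate 3 (1.07, adjusted p = 0.0132) and with no filter on low values (adjusted p = 0.0107), and ID3 differed by -0.19 (SE 0.22, adjusted p = 0.496). With only the compared groups fitted, the first ID1 rise (adjusted p = 0.012) and the ID3 fall (adjusted p = 0.053) were not called, and the first ID3 rise was kept under every setting.

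Between depots ID1 was lower in IMF on day 2 (-1.35, SE 0.29, adjusted p = 0.00212) and day 4 (-1.02, SE 0.29, adjusted p = 0.00761), and ID3 was higher in IMF on day 8 by 2.14 (SE 0.22, adjusted p = 4.33e-07). The ID3 call was kept under every setting. The day 2 call of ID1 was lost without BF-2d replicate 1 (-1.24, adjusted p = 0.0114), BF-2d replicate 2 (-1.01, adjusted p = 0.0206) or IMF-2d replicate 3 (-1.26, adjusted p = 0.0133), and that of day 4 without any library except BF-4d replicate 3 (-0.86 to -1.10, adjusted p of 0.0135 to 0.042). With only the compared groups fitted, adjusted p was 0.0937 on day 2 and 0.0212 on day 4, and the day 4 call was also lost with no filter on low values (adjusted p = 0.022) and with quantile normalization (-0.95). The ratio of ID3 to ID1 FPKM was 6.95 to 7.50 in BF-0d and 2.70 to 3 in BF-8d, and 8.71 to 10.9 in IMF-0d and 6.70 to 8.49 in IMF-8d.

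Leaving out BF-2d replicate 3, the library that stood apart, kept the 5 rises of the first BF interval, at 2.41 for BMP2, 1.56 for GREM1, 1.20 for SMAD7, 2.99 for ID1 and 2.36 for ID3, while the share of all tested genes called there became 10%. It also kept the rises of TGFB1 (1.30) and TGFB2 (1.75) from BF-2d to BF-4d. On day 2, ID3 was then called lower in IMF (-1.07, adjusted p = 0.000998) beside BMP2 (-2.35), GREM1 (-2.74) and ID1 (-1.81).

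The change over an interval was itself compared between the depots, as the change in IMF minus the change in BF. From day 0 to day 2, the differences of GREM1 (-1.64, SE 0.37, adjusted p = 0.00727) and ID3 (-1.67, SE 0.31, adjusted p = 0.00224) were called, 2 of 10 against 2.45% of all tested genes, with smaller changes in IMF. BMP2 (-1.87, SE 0.52, adjusted p = 0.0234) and ID1 (-1.69, SE 0.41, adjusted p = 0.0115) were not called. With a pseudocount of 0.1 BMP2 was called (-3.85, adjusted p = 0.00431), and with the stricter filter ID1 was (adjusted p = 0.00943). From day 2 to day 4, limma called 0 of 10 against 3.06% of all tested genes, with 6 at an unadjusted p under 0.05 and up to 1 called under the other limma settings. SMAD7 was closest there (-0.999987, SE 0.20, adjusted p = 0.00281), just short of the fold limit, and it was called without any of 5 of the 12 libraries (-1.01 to -1.17). INHBA gave -2.92 (SE 0.82, adjusted p = 0.0259), TGFB2 -2.49 (SE 0.61, adjusted p = 0.0114) and TGFB1 -1.08 (SE 0.34, adjusted p = 0.0417). From day 4 to day 8, BMP2 (2.96, SE 0.52, adjusted p = 0.000525), BMP4 (2.31, SE 0.34, adjusted p = 8.27e-05), GREM1 (2.02, SE 0.37, adjusted p = 0.000652), ID1 (1.79, SE 0.41, adjusted p = 0.00425) and ID3 (2.20, SE 0.31, adjusted p = 6.72e-05) were called, 5 of 10 against 6.39% of all tested genes. The change in IMF minus that in BF was positive for all 5, and for ID1 (0.72 in IMF, -1.07 in BF) and ID3 (0.61 in IMF, -1.59 in BF) the change in IMF was the smaller in size and neither was called in IMF.

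Within these contrasts ID3 from day 0 to day 2, and BMP2, BMP4, GREM1 and ID3 from day 4 to day 8, were called in every fit that left out a library of the compared groups. GREM1 from day 0 to day 2 was called in 2 of 12 such fits, those without BF-2d replicate 2 or BF-2d replicate 3, and had adjusted p of 0.0124 to 0.0211 in the other 10 (-1.54 to -1.72). It was also lost with no filter on low values (adjusted p = 0.0209) and with only the compared groups fitted (adjusted p = 0.0119). ID1 from day 4 to day 8 was called in 6 of 12 and lost without BF-4d replicate 1 or 2, BF-8d replicate 1, IMF-4d replicate 3, or IMF-8d replicate 1 or 3 (1.63 to 1.71, adjusted p of 0.0101 to 0.0151), and with no filter it was lost too (adjusted p = 0.0147). Without BF-2d replicate 3 the first interval gave 4 calls, with BMP2 (-2.50, adjusted p = 5.25e-05) and ID1 (-2.14, adjusted p = 6.14e-05) added, against 7.33% of all tested genes. Without BF-4d replicate 1 the second interval gave 4 calls, TGFB1 (-1.49), TGFB2 (-3.05), INHBA (-3.77) and BMP4 (-1.05), against 4.34% of all tested genes, where BMP4 gave -0.64 (adjusted p = 0.22) with all libraries. Without BF-4d replicate 3 INHBA was called at -1.75 (adjusted p = 0.00338). From day 4 to day 8 INHBA gave 2.59 (SE 0.82, adjusted p = 0.0349), and it was called without BF-4d replicate 1 (3.44, adjusted p = 0.00132) and without BF-4d replicate 3 (1.42, adjusted p = 0.00572). With a pseudocount of 0.1 the BMP2 difference from day 4 to day 8 was 5.16.

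**Figure D4:**
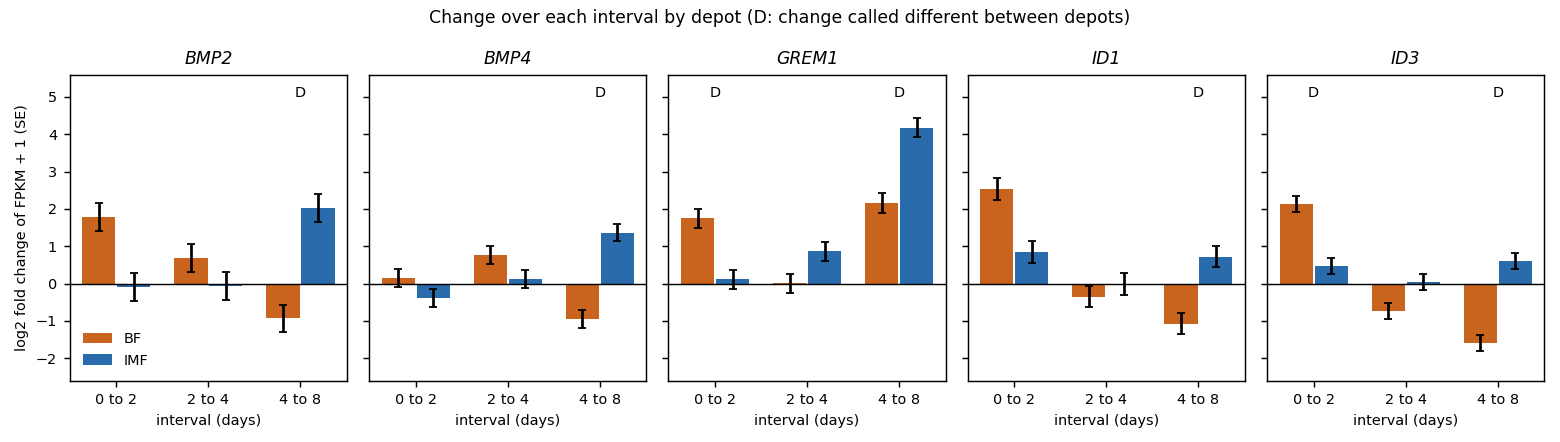
Log2 fold change of FPKM + 1 (vertical axis) over the 3 intervals (horizontal axis) in BF (orange) and IMF (blue) for the 5 genes with a called difference between depots, with bars of 1 SE and D above intervals where the change was called different. From day 4 to day 8 the bars of BMP2, BMP4, ID1 and ID3 point up in IMF and down in BF, and both GREM1 bars point up, at 4.18 and 2.16.

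The rest of the pathway was described from lists by role with 102 further genes, of which 98 were in the table, 77 were tested and 43 were called in at least 1 pairwise comparison, as were 23.7% of all tested genes. From BF-0d to BF-2d, 10 of the 77 rose and 7 fell, against 2.71% and 3.87% of all tested genes, and from BF-0d to BF-8d 7 rose and 13 fell, against 6.28% and 7.39%. Between these days, 3 rose and 5 fell from BF-2d to BF-4d (2.01% and 1.34%), and 1 rose and 8 fell from BF-4d to BF-8d (1.78% and 1.14%). From IMF-0d to IMF-2d 2 rose and 3 fell (0.328% and 0.459% of all tested genes), from IMF-2d to IMF-4d 0 did (0.031% and 0.0062%), and from IMF-4d to IMF-8d 5 rose and 11 fell (4.16% and 3.08%). Over the whole course in IMF 7 rose and 13 fell (4.56% and 4.49%). In IMF against BF, 5 were higher and 0 lower on day 0 (1.87% and 0.713% of all tested genes) and 9 and 4 on day 2 (2.71% and 2.02%). On day 4 the counts were 12 higher and 7 lower (6.6% and 4.72%), and on day 8 they were 13 and 3 (4.31% and 2.65%).

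Outside the main set 10 tested genes were listed as ligands, among them BMP1, which is a procollagen proteinase and not a ligand. GDF15, a stress-induced family member, rose from 8.66 ± 0.880 FPKM in BF-0d to 154 ± 54.1 in BF-8d (3.95, SE 0.47, adjusted p = 1.02e-06). INHBE, the inhibin beta E subunit gene, fell over the first 2 days in both depots, from a mean of 3.46 to 0.912 FPKM in BF and 3.61 to 0.588 in IMF. It rose from BF-4d to BF-8d by 1.68 (SE 0.35, adjusted p = 0.00222), a call lost with only the compared groups fitted and without BF-4d replicate 1, BF-4d replicate 2 or BF-8d replicate 3, and from BF-0d to BF-8d the difference was 0.42 (adjusted p = 0.337). BMP6 was called in IMF, where it rose over the last interval at low values, from a mean of 0.0277 FPKM in IMF-4d to 1.12 in IMF-8d. Its highest BF mean was 0.445 FPKM, in BF-2d. INHBB, the inhibin beta B subunit gene, fell in BF from day 0 to day 8.

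Of the 15 receptors and co-receptors, TGFBR3, the co-receptor betaglycan, rose in both depots from day 0 to day 2 and fell in BF from day 4 to day 8. ENG, the co-receptor endoglin, was higher in IMF on days 0, 4 and 8, at 40.4 ± 4.37 FPKM against 18.7 ± 0.382 on day 0. The BMP co-receptor RGMB rose between IMF-0d and IMF-8d by 1.99 (SE 0.20, adjusted p = 1.61e-07), and RGMA was higher in IMF on day 8 by 1.73 (SE 0.25, adjusted p = 2.44e-05). None of the 6 SMADs that carry the signal was called by limma in the 12 pairwise comparisons, where 23.7% of all tested genes were called in at least 1, so 0 of 6 is not set apart from that share. Of the 72 tests of these SMADs, 23 were at an unadjusted p under 0.05, with SMAD3 at 0.82 from BF-0d to BF-8d.

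The 17 secreted regulators included CHRDL2, a BMP-binding relative of chordin listed at 0 in all day 0 libraries, which was lower in IMF on day 4 (-3.23, SE 0.55, adjusted p = 0.000102) at 0.0390 ± 0.0676 FPKM against 11.3 ± 7.94 in BF. THBS1, which encodes thrombospondin 1, an activator of latent TGF-beta, fell from IMF-0d to IMF-8d (-2.80, SE 0.34, adjusted p = 2.46e-06). FST, the activin antagonist follistatin, rose in BF over the first interval and fell over the last, when it rose in IMF. Of the 12 genes listed as intracellular inhibitors, PMEPA1 fell from BF-4d to BF-8d (-1.65, SE 0.26, adjusted p = 0.000196, lost with only the compared groups fitted), and SMAD6 fell beside it. USP15 was in that list although it is a deubiquitinating enzyme and not an inhibitor of the pathway. It was lower in IMF on day 8 (-1.57, SE 0.21, adjusted p = 1.22e-05).

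Of the 17 other target genes, ID2, the relative of ID1 and ID3, rose in BF over the first interval and fell there over the last, and in IMF it rose over the last interval. It was 26.9 ± 1.48 FPKM in BF-0d, 178 ± 82.4 in BF-2d, 27.1 ± 1.81 in IMF-0d and 117 ± 3.23 in IMF-8d. From BF-0d to BF-8d, ACTA2, smooth muscle actin, fell from a mean of 1600.1 to 6.49 FPKM (-7.92, SE 0.55, adjusted p = 1.08e-09) and CCN2, connective tissue growth factor, from 344 to 3.41 FPKM (-6.32, SE 0.51, adjusted p = 7.96e-09). COL1A1 and TAGLN fell in the same comparison, and TGFBI, MSX1, JUNB and ID2 were among the genes that rose. In IMF from day 0 to day 8, 9 of the 17 fell, ACTA2 and CCN2 among them, where 4.49% of all tested genes fell, and ID2 alone rose, where 4.56% did.

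**Figure D5:**
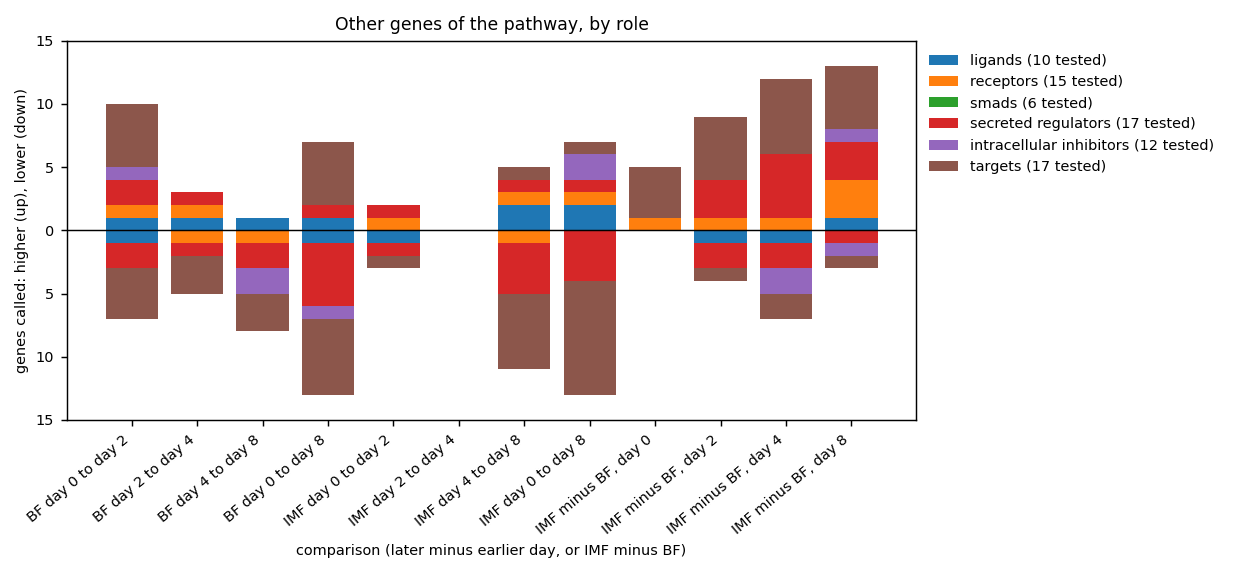
Number of further pathway genes called higher (above 0) and lower (below 0) on the vertical axis in the 12 pairwise comparisons (horizontal axis), coloured by role. Targets and secreted regulators make up most of the falls, 11 of 13 from BF-0d to BF-8d and 13 of 13 from IMF-0d to IMF-8d, and the signal-carrying SMADs appear in no bar.

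Across the 24 libraries, which share groups and days, the genes formed loose pairs by their log2 values, given as a description. Pearson's r was 0.790 between BMP2 and ID1, 0.767 between ID1 and ID3, 0.755 between TGFB1 and INHBA, 0.740 between BMP2 and GREM1 and 0.738 between TGFB1 and TGFB2, and lowest at -0.570 between TGFB3 and GREM1. Over 10086 other genes with a symbol and at least 1 FPKM in some group, the courses most like each gene were those of ANXA11 and CHST15 for TGFB1 (0.923 and 0.918), WLS and LRRC8C for TGFB2 (0.946 and 0.946), BOC and GJC1 for TGFB3 (0.837 and 0.835), and PI15 and SEMA6A for INHBA (0.943 and 0.930). They were HSD17B12 and APOLD1 for BMP2 (0.966 and 0.964), LGI2 and TPPP3 for BMP4 (0.849 and 0.832), RNASE4 and MAP3K8 for GREM1 (0.961 and 0.930), and EFNB2 and DCBLD1 for SMAD7 (0.851 and 0.849). For ID1 the course of KLHL26 was the most alike (0.941), and for ID3 those of EMC10 and B4GAT1 (0.940 and 0.927).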

How the data were processed

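RNA of 24 libraries was sequenced by the authors, who aligned reads to Sscrofa11.1 with HISAT2 and quantified genes with StringTie 1.3.4d (version per the labels). The deposited values were FPKM per gene and library, already scaled by transcript length and mapped fragments, so no counts or depths are known and the authors' DESeq2 test (1.6.3, per the labels) could not be used. Small RNA libraries were not analysed here. An FPKM of exactly 0 can be a failed estimate, since 0 occurred in 4 of 4503 genes whose median exceeded 10 FPKM, so such genes are described as listed at 0.

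Genes with FPKM summed over the libraries above 1 (16135) were tested as log2(FPKM + 1) with limma (version 3.58.1, R 4.3.3), with the trend and robust options of eBayes and 1 mean for each of the 8 groups. P-values were adjusted by Benjamini and Hochberg over all tested genes, in 12 pairwise comparisons and 3 interaction contrasts, with the thresholds the authors used (0.01 and a log2 fold change of 1). The script was tested on simulated data.

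The 10 genes and all lists were chosen with earlier results of these data known. Named beside them were the 2 genes of each role list with the largest called change, and the 2 genes with the highest Pearson's r. BMP6, INHBB, TGFBR3, ENG, SMAD3, FST, SMAD6, ID2, COL1A1, TAGLN, TGFBI, MSX1 and JUNB were named after their values were seen. Some genes that these rules name are not reported here. Of the listed symbols, GDF1, BMP8A, BMP8B, FKBP1A, THY1 and VWF matched no row. Motifs were counted in the 250 bases before each RefSeq gene start. Alternatives were another pseudocount, filters, scalings, the groups fitted, a replicate block, plain eBayes and leaving out each library of the compared groups. Libraries of the other groups, which also enter the SE, were not left out.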

Additional observations from a re-analysis of the deposited data

Results flagged for a closer look

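In 7 cases the change over an interval differed between the depots by the interaction contrast of limma (change in IMF minus change in BF, log2 of FPKM + 1). From day 0 to day 2 the contrast was -1.64 for GREM1 (adjusted p = 0.00727) and -1.67 for ID3 (adjusted p = 0.00224), where each of these genes rose in BF and neither was called in IMF. From day 4 to day 8 it was 2.96 for BMP2 (adjusted p = 0.000525), 2.31 for BMP4 (adjusted p = 8.27e-05), 2.02 for GREM1 (adjusted p = 0.000652), 1.79 for ID1 (adjusted p = 0.00425) and 2.20 for ID3 (adjusted p = 6.72e-05). Over that interval BMP2 and BMP4 rose in IMF and gave -0.94 and -0.95 in BF, ID3 fell in BF and gave 0.61 in IMF, and GREM1 rose in both. All groups held 3 libraries, too few for a test of single libraries against the rest of their group.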

How the results depend on the processing

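No value of the 46 calls of the 10 genes changed sign under any alternative. All 46 were kept with a pseudocount of 0.1, a stricter filter, plain eBayes and the replicate block, 45 with median ratio scaling, 43 with quantile normalization, 39 with no filter on low values and 31 with only the compared groups fitted. Of 318 values computed with 1 library left out, 266 kept their call. With only the compared groups fitted, the number of the 10 genes called in BF was 1 in the first interval (1.47% of all tested genes), 0 in the second (0%) and 0 in the third (0.0248%), and between depots it was 1 on day 2 (0.663%) and 3 on day 4 (9.65%) and 1 for the interaction from day 0 to day 2 (0.818%). With no filter that interaction count was also 1 (0.884%). The interaction from day 2 to day 4 gave 1 call with a pseudocount of 0.1 (3.71%), with the stricter filter (4.67%) and with quantile normalization (3.01%). Over the fits without 1 library, the counts ranged from 1 to 4 for BF-2d to BF-4d (2.51 to 5.27% of all tested genes), 0 to 1 between depots on day 0 (2.14 to 2.42%), 1 to 4 on day 2 (2.76 to 7.98%), 1 to 4 for the interaction from day 0 to day 2 (1.2 to 7.33%) and 0 to 4 for that from day 2 to day 4 (1.67 to 5.45%). The cause was not tested. With only the compared groups fitted, all tested genes called from BF-2d to BF-4d fell from 541 to 0, and from BF-4d to BF-8d from 472 to 4.

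No pairing by replicate number showed, but with 3 libraries a group the check cannot tell whether a number marks 1 piglet. Deviations of the 84 pairs of libraries with the same number correlated at -0.454 to 0.457, with 9 of 84 over 0.1. Of pairs with different numbers, 11 of 72 within a depot and 9 of 96 between depots were over 0.1. The replicate block gave 5 calls from BF-0d to BF-2d, as without it, and changed no other call. Median ratio scaling shifted the median of all genes by 0.15 from BF-0d to BF-8d, by 0.14 from IMF-4d to IMF-8d and by -0.13 between depots on day 4, its largest shifts. FPKM give no depth, so the counting error of low values such as those of BMP2 is unknown.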

Other observations

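The share of TGFB2 in the summed FPKM of TGFB1, TGFB2 and TGFB3 differed between the libraries of BF-2d, at 40.9, 39.0 and 23.7%, and between those of BF-4d, at 48.9, 58.2 and 71.8%. BF-2d replicate 3 was the lowest of its group for TGFB2, TGFB3, BMP2, BMP4, SMAD7, ID1 and ID3 and the highest for TGFB1 and GREM1. BF-4d replicate 3 was the highest of its group for TGFB1, TGFB2, TGFB3, INHBA, BMP4 and SMAD7 and the lowest for BMP2, GREM1, ID1 and ID3.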
